A study of Mus musculus with 6 samples.

Results

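Resting bone marrow-derived macrophages kept in macrophage colony-stimulating factor (M-CSF) alone, labelled M0, are described here from their 3 RNA sequencing libraries, out of 6 in the series. The libraries were taken by their label and every gene of the deposited table was used, 25123 of 25124 after 1 misaligned entry was left out. Marrow came from the femurs and tibias of wild-type C57BL/6 mice aged 8 weeks and was differentiated with 20 ng/ml M-CSF for 7 days. M0 cells then received medium with 20 ng/ml M-CSF and no IL-4, and were harvested 4 h later. The other 3 libraries come from cells that also received 10 ng/ml IL-4, and no comparison with them is made. All cells of the series carry M-CSF, so its own effect cannot be read from these data. Polyadenylated RNA was taken from 100 ng of total RNA. Nothing in the labels says whether the replicates came from separate mice or cultures, so the spread between them may be technical. Since each library is RNA of a whole culture, fewer cells of a kind and less RNA per cell cannot be told apart.

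Macrophages are phagocytes that engulf dead cells and microbes, degrade them in lysosomes, recycle their iron and lipid, and sense their surroundings through a large set of surface receptors. M-CSF binds the receptor encoded by Csf1r and drives marrow progenitors to become adherent macrophages that depend on it. PU.1, encoded by Spi1, is the transcription factor that sets myeloid identity, and its partners of the C/EBP and IRF families shape the mature cell. TFEB and related factors drive lysosomal genes through a short promoter element named CLEAR. Factors activated by interferon act through another, the interferon-stimulated response element (ISRE).

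Some promoters of genes high in resting macrophages carry the letters of these elements, and examples for each are shown because surface and lysosomal genes stand high in the ranking below and interferon-stimulated genes are taken up with the spread between replicates. Sequences are from RefSeq on GRCm38.p6, 5′ to 3′ on the gene's strand, from 250 bases before the start to 30 bases from it. The PU.1 letters GAGGAAGT, on either strand, are in capitals in the promoters of the tetraspanins Cd53 (chr3:106790120-106790399, minus strand) and Cd37 (chr7:45238810-45239089, minus strand) and of osteopontin, Spp1 (chr5:104434861-104435140, plus strand).
Cd53: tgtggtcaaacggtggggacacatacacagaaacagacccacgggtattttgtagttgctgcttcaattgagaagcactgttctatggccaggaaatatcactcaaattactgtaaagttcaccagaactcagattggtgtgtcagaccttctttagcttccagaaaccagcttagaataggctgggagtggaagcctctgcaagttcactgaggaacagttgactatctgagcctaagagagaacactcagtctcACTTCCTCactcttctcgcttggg
Cd37: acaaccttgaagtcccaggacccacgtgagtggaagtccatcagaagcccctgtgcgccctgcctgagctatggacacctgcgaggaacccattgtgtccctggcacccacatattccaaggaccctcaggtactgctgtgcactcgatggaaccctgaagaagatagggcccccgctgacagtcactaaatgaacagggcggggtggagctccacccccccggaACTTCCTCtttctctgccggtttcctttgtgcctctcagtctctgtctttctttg
Spp1: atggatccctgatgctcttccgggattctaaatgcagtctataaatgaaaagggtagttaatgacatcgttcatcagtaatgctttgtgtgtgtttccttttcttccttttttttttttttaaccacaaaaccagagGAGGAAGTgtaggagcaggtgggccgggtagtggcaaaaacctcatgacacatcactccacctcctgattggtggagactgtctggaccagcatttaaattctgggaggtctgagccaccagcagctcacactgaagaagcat

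In the promoters of the lysosomal protease cathepsin D, Ctsd (chr7:142387798-142388077, minus strand), and of the lysosomal membrane protein Lamp1 (chr8:13158911-13159190, plus strand), capitals mark the CLEAR letters GTCACGTG on either strand. These letters contain the E-box CACGTG, which was also searched.
Ctsd: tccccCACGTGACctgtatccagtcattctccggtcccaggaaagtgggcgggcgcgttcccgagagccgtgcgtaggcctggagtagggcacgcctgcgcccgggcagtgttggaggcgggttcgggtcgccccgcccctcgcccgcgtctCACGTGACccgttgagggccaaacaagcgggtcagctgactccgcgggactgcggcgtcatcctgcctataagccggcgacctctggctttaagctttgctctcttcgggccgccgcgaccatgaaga
Lamp1: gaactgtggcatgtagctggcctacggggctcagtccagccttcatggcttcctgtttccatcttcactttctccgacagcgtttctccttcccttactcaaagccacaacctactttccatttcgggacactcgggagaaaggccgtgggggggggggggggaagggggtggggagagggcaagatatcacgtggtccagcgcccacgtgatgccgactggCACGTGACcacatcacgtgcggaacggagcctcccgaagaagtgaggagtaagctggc

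Ifitm3 (chr7:141010715-141010994, minus strand), which encodes a membrane protein that blocks virus entry, holds the ISRE letters, GAAA and again GAAA with any 2 bases between them, at 2 places, in capitals.
Ifitm3: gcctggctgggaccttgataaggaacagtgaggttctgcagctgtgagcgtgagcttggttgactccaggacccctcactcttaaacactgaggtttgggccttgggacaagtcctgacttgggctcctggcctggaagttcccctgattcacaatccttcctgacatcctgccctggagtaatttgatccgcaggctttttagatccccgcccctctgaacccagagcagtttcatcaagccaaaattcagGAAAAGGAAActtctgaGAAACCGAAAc

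Of all genes, 17834 had a promoter entry starting within 100 bases of the deposited transcript start, 8472 of them among the 11098 genes with a mean of at least 1 TPM, a read share scaled by transcript length. The PU.1 letters stood in 3.17% of all promoters of 300 bases, against 15 of 135 promoters of surface protein genes (11.1%) and 7 of 89 of secreted protein genes (7.87%). On the gene's own strand alone they stood in 1.71% of all promoters and 3.70% of those of surface protein genes. They were found in 3 of 35 promoters of genes at 1000 TPM or more (8.57%) and in 33 of 656 at 100 to 1000 TPM (5.03%). CLEAR letters were in 2.99% of all promoters and in 6 of 26 promoters of lysosomal genes (23.1%), among them Ctsd, Lamp1, Ctsa and Atp6v0d1. ISRE letters were in 3.45% of all promoters and in 13 of 17 promoters of interferon-stimulated genes (76.5%), and on the gene's own strand alone in 1.79% and 41.2%. For CLEAR the values on the gene's own strand were 1.79% of all and 15.4% of lysosomal promoters. A TATA box, TATAAA on either strand, was in 12.9% of all promoters, in 10 of 35 at 1000 TPM or more (28.6%) and in 1250 of 5224 of genes at 0 in every library (23.9%). The same PU.1 letters were also in 4 of 9 promoters of monocyte and progenitor markers, a list whose levels were low here. These shares describe letters and not bound sites, and the smaller groups rest on few promoters.

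Whole reads recovered from the deposited TPM numbered 18260946, 18619155 and 16911049 in M0 replicates 1, 2 and 3, so that 1 read in a transcript of 1 kb was worth 0.0653 to 0.0700 TPM. TPM is read number divided by transcript length and scaled per library, so levels of different genes can be set side by side. Counting error is therefore small for abundant genes, and a gene with no read in all 3 libraries is limited only to under 3 reads over the group, which for the 44 such members of the gene lists is 0.0148 to 0.167 TPM. Intervals of this kind cover counting error only. Between 11094 and 11130 genes reached 1 TPM in each library. By the mean of the 3 libraries, 7957 genes were at 0, 6068 were above 0 and under 1 TPM, 4399 were at 1 to 10, 5779 at 10 to 100, 876 at 100 to 1000 and 44 at 1000 TPM or more.

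RNA of resting macrophages was concentrated in few genes, led by ferritin, lysozyme and lysosomal proteases. The 44 genes at 1000 TPM or more held 24.1% of all TPM, and the 100 most abundant held 31.8% ± 0.601 (SD, n = 3). The 10 most abundant alone held 14.3% ± 0.240. Among the 44, 13 belonged to the metabolic lists (7 of them lysosomal), 10 to the secreted, 7 to the cytoskeletal and ribosomal and 5 to the surface lists, some genes standing in more than 1 class. None was a listed transcription factor.

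Fth1, the heavy chain of ferritin, which stores iron, was at 15104, 14062 and 15431 TPM in replicates 1, 2 and 3 (chr19:9982646-9985111, mm10). Lyz2, lysozyme (chr10:117277541-117282272), was at 13563, 14318 and 13350 TPM. Their ranges overlapped, so that neither of these 2 genes can be placed above the other. Ftl1, the ferritin light chain, was at 11861, 10262 and 12019 TPM and overlapped with Ctsd (chr7:142375910-142387827) at 11196, 10648 and 11266 TPM. Every Lyz2 value was above every Ftl1 and Ctsd value, and these in turn were above Tmsb4x, thymosin beta 4, which binds actin monomers, at 6807, 7019 and 7070 TPM. The 2 ferritin chains made up 4.89%, 4.44% and 4.96% of all TPM in the 3 libraries.

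Next came Psap, the precursor of the saposins that help degrade sphingolipids, at 6031, 5945 and 6115 TPM, and Ctsb, cathepsin B, at 4375, 4358 and 4301 TPM. Both were separated from their neighbours. The following genes overlapped in part: Gpnmb, a glycoprotein of lysosome-rich macrophages (3533 ± 59.3), Actb (3470 ± 152), the lipid carrier Apoe (3461 ± 414) and the galectin Lgals3 (3422 ± 178; all mean ± SD of TPM, n = 3). Apoe was at 3634, 2988 and 3761 TPM, lowest in replicate 2. Because long transcripts gather more reads, ranking by reads gave another order, with Ctsd at 1, Ctsb at 2, Psap at 3, Lyz2 at 4 and Fth1 at 5.

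The 25 most abundant genes further held Vim, Spp1, the elongation factor Eef1a1, cathepsin S (Ctss), B2m, C1qb, Lgals1, Rplp1, Pfn1, Grn and C1qc. They also held the entries H2-L at 1978 TPM and H2-D1 at 1693 TPM. The H2-L entry (chr17:35263123-35266730) lies within that of H2-D1 (chr17:35263094-35267497) on the same strand, and they share reads. Their separate values are therefore uncertain, and they need not stand for 2 separate genes. Mir6236 stood at rank 19 with 1789 TPM (chr9:110281287-110281409). It held 3575, 2836 and 3339 reads and ranked 1065 by reads, because TPM divides by a transcript length of 122 bases. A value from poly(A) RNA is no measure of the mature miRNA.

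**Figure D1:**
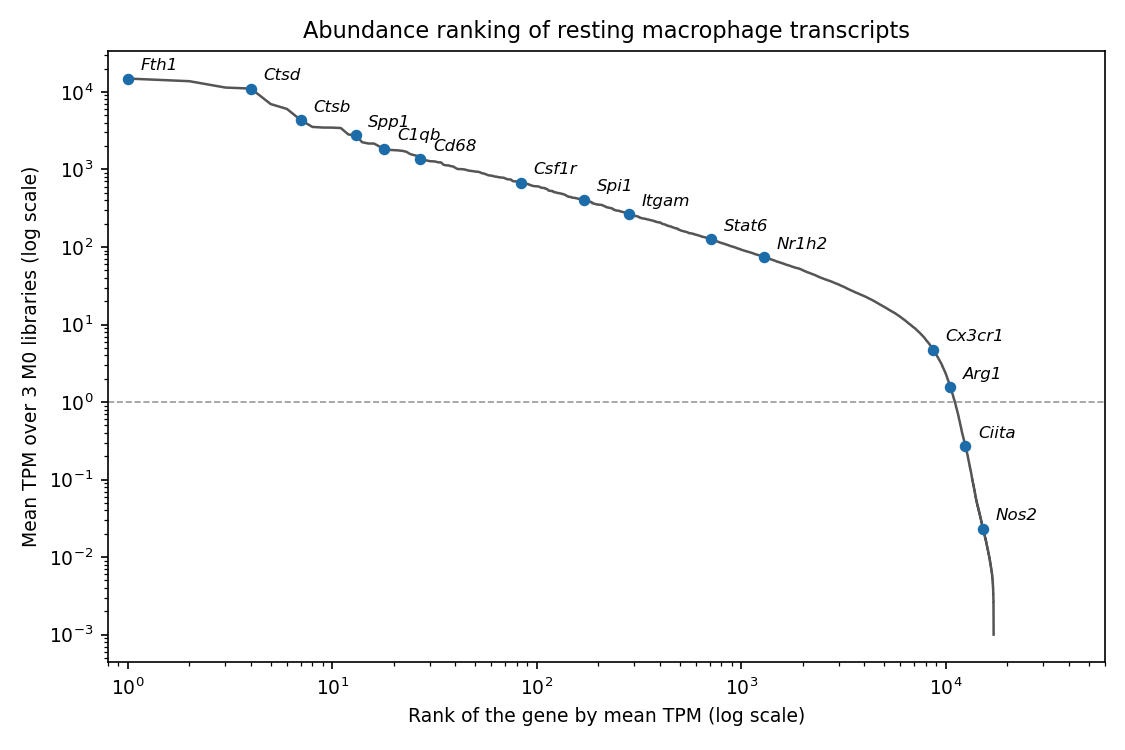
Mean TPM of each gene with any read (y axis, log scale) against its rank (x axis, log scale) over the 3 M0 libraries, with named genes as points and 1 TPM as a dashed line. The curve falls slowly from Fth1 at 14866 TPM to genes near 10 TPM and then steeply, with Arg1 at 1.55 TPM close to the line and Ciita and Nos2 under it.

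The 5 markers that define the label were all present at 100 TPM or more in every library. Cd68, a lysosomal glycoprotein, was at 1424, 1352 and 1322 TPM. Csf1r was at 684, 678 and 661 TPM, with a coefficient of variation (CV, SD over mean) of 1.75%. Adgre1, which encodes the F4/80 antigen, was at 517, 586 and 505 TPM, and Itgam, the alpha chain of complement receptor 3, at 265, 290 and 247 TPM. All 5 were lowest in replicate 3, and Lyz2, Adgre1 and Itgam were highest in replicate 2. The order Lyz2, Cd68, Csf1r, Adgre1, Itgam held with no overlap between neighbours.

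Markers of other marrow cells were low. Of 78 such genes in 9 lists, 17 reached 1 TPM (21.8%) and 4 reached 10 (5.13%), against 44.2% and 26.7% of all genes. No read was found for 16 of them, against 7957 of all 25123 genes. The summed level of the 78 was 97.9, 111 and 102 TPM in replicates 1, 2 and 3. The highest means were those of neutrophil granule and calprotectin genes, with S100a9 at 13.4, 15.6 and 15.9 TPM, S100a8 at 14.6 ± 2.78 and the collagenase Mmp8 at 12.9 ± 1.52 TPM. The neutrophil surface gene Ly6g was at 0.0747 TPM. The monocyte chemokine receptor Ccr2 was at 6.53, 8.17 and 5.66 TPM and Ly6c2 at 0.606 TPM. The progenitor gene Cd34 was at 1.07, 1.05 and 1.40 TPM, and Kit, Elane, Mpo and Flt3 were each under 0.3 TPM. In the B cell list Cd79b was highest (1.71 TPM), and in the T and NK cell list Cd4 (1.52 TPM). Siglecf, also in the alveolar macrophage list, led the mast cell, basophil and eosinophil list (1.57 TPM). The T cell genes Cd3d and Cd8a, the B cell gene Vpreb3 and the mast cell gene Tpsb2 had no read. The highest fibroblast and stromal genes were the collagen genes Col1a2 (4.92 TPM) and Col1a1 (3.51 TPM), the matrix protein gene Sparc (3.52 TPM) and smooth muscle actin, Acta2 (2.98 TPM). Dendritic cell markers were all under 1 TPM, led by Fscn1 at 0.693, with Flt3 at 0.055 and Zbtb46 at 0.077. Vwf, an endothelial and platelet clotting protein, reached 12.0, 12.9 and 11.6 TPM (12.1 ± 0.681), and overlapped with S100a8 and Mmp8. The endothelial growth factor receptor Kdr was at 2.78 ± 0.249 TPM. The other endothelial genes were under 1 TPM, with Cdh5 at 0.731, Pecam1 at 0.407 and Cldn5 and Tek with no read. Globin genes had no read, but Hba-a1, Hbb-bs and Hbb-bt have near-identical copies whose reads a counter may drop, so these zeros are uncertain.

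Signature genes of tissue macrophages varied widely in level. Of 39 such genes, 22 reached 1 TPM (56.4%), 7 reached 10 (17.9%) and 3 reached 100 (7.69%). The shares over all genes were 44.2%, 26.7% and 3.66%. Cd5l, a secreted scavenger protein used as a mark of Kupffer cells and other resident macrophages, was at 429, 438 and 440 TPM. The other 7 genes of that list lay between 0.0573 (Clec4f) and 9.58 TPM (Marco). Fcrls of the microglia list was at 44.0 TPM. Olfml3, Tmem119, P2ry12 and Gpr34 were at 6.18, 5.43, 3.96 and 2.65 TPM, but Sall1 and Siglech were under 0.1 TPM. Gata6, the factor of large peritoneal macrophages, had no read, nor had 5 of 8 alveolar macrophage genes, of which Ear1 belongs to a family of near-identical copies. Icam2 and Serpinb2 of the large peritoneal list were at 4.58 and 3.52 TPM, and its 5 other genes were under 1 TPM. In the alveolar list Pparg was at 16.7, Chil3 at 3.61 and Siglecf at 1.57 TPM. Atp6v0d2, a proton pump subunit of osteoclasts, was at 129 TPM, and Acp5, Nfatc1 and Ctsk of that list at 19.7, 15.2 and 6.38 TPM. Ocstamp was at 1.35 TPM and Dcstamp, needed for cell fusion, at 1.02 TPM. Oscar was at 0.0257 TPM and the calcitonin receptor Calcr had no read.

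**Figure D2:**
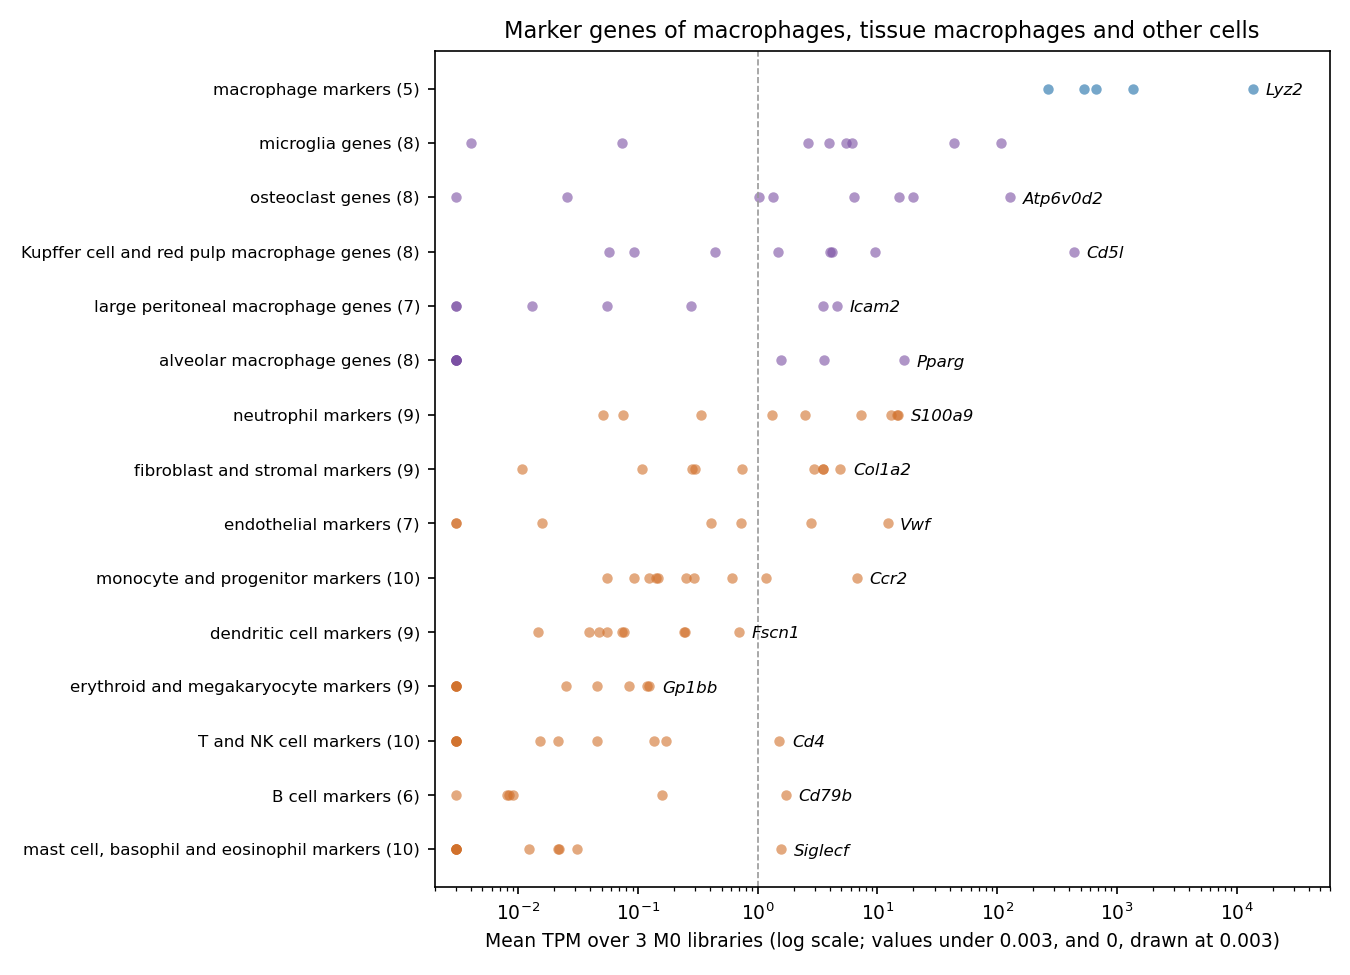
Mean TPM over the 3 M0 libraries (x axis, log scale) of each member of the macrophage, tissue macrophage and other cell marker lists (rows, with the number of members), with the highest member named in all but 1 row. The 5 macrophage markers lie between 267 and 13744 TPM. The 2 markers of other cell types with the highest means, S100a9 (13.4 to 15.9 TPM) and S100a8 (12.5 to 17.8 TPM), overlap, and S100a8 also overlaps with Vwf (11.6 to 12.9 TPM).

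Surface protein genes were broadly expressed, with 121 of 189 members at 10 TPM or more and 53 at 100 or more, against 26.7% and 3.66% of all genes. B2m and H2-D1 of the class I molecules led them. Among receptors and their adaptors, Tyrobp, the DAP12 adaptor of activating receptors, was at 1278, 1145 and 1275 TPM, its partner Trem2, a lipid-sensing receptor, at 1060, 917 and 1056 TPM, and Fcer1g, the common Fc receptor gamma chain, at 987, 949 and 949 TPM. Tyrobp and Trem2 were lowest in replicate 2. The SIRP alpha receptor for CD47, Sirpa, was at 669 ± 15.5 TPM, and the inhibitory receptor Lilrb4a at 353 ± 30.5 TPM, though Lilrb4a has a near-identical neighbour and its value is uncertain.

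Receptors for opsonised cargo followed a clear order. The beta 2 integrin chain Itgb2 was at 580 ± 18.2 TPM, the low-affinity IgG receptor Fcgr3 at 417 ± 19.7, Itgam at 267 ± 21.9, the high-affinity IgG receptor Fcgr1 at 128 ± 7.55, Fcgr4 at 78.1 ± 2.93 and the inhibitory Fcgr2b at 48.4 ± 3.12 TPM. Among 9 neighbouring pairs of that list, 8 did not overlap, the exception being Fcgrt and Fcgr4. The complement receptor Vsig4 was at 0.439 TPM.

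Scavenger receptors reached a median of 12.0 TPM, with 6 of 20 at 100 or more (30%), against 3.66% of all genes. Cd36, which takes up oxidised lipoproteins and fatty acids, was at 863, 1053 and 875 TPM, with replicate 2 above the other two. Stab1 (335 ± 6.98), Lrp1 (324 ± 23.8) and Msr1 (225 ± 19.7 TPM) came next. Of the receptors that bind dying cells, Mertk was at 35.6 TPM, Axl at 8.92, Tyro3 at 0.259 and Timd4 at 0.0930 TPM. Cd163, the haptoglobin-haemoglobin receptor, was at 3.98 TPM.

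Pattern recognition receptors were led by the C-type lectin Clec4d at 425.6, 426.7 and 426.2 TPM, the gene of its list with the closest replicates. The mannose receptor Mrc1 followed at 191, 236 and 196 TPM, highest in replicate 2. The LPS co-receptor Cd14 was at 158 ± 3.83 TPM and did not separate from Tlr13, a sensor of bacterial ribosomal RNA, at 148 ± 13.9. Tlr8 (72.7 ± 8.50) and Tlr4 (39.4 TPM) lay lower, and Tlr11 and Tlr12 were at 0.0140 and 0.0210 TPM.

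Among receptors for soluble signals, Csf1r stood above every other cytokine receptor. The shared IL-10 family chain Il10rb (208 ± 9.12), the GM-CSF receptor chain Csf2ra (174 ± 15.1) and the TNF receptors Tnfrsf1b (146 ± 11.1) and Tnfrsf1a (124 ± 3.67 TPM) were among those that followed. The IL-4 receptor alpha chain Il4ra was at 79.7, 73.2 and 75.2 TPM with its partner Il2rg at 53.4, while Il13ra1 was at 3.34 TPM. The anaphylatoxin receptors C5ar1 (500.4, 467 and 495 TPM) and C3ar1 (359 ± 27.1 TPM) were the highest chemoattractant receptors after Adgre1 in their list. Of the chemokine receptors, Ccr1 was at 91.0 TPM, Cx3cr1, the fractalkine receptor, was at 4.97, 4.85 and 4.46 TPM, and Ccr7 was at 0.0473 TPM.

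Class I and class II antigen presentation genes differed widely in level. B2m, the light chain of class I molecules, was at 2166, 2181 and 2122 TPM, and H2-K1 at 842, 839 and 832 TPM, though class I heavy chains are alike in sequence and their values are uncertain. The class II invariant chain Cd74 was at 68.0, 61.1 and 67.7 TPM, the class II chains H2-Ab1, H2-Aa and H2-Eb1 were at 15.7, 11.4 and 6.92 TPM, and their transactivator Ciita was at 0.343, 0.283 and 0.190 TPM. The co-stimulatory genes Cd80 and Cd86 were at 11.1 and 4.25 TPM, and Cd274, which encodes PD-L1, at 19.3 TPM.

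Secreted protein genes ran from the top of the ranking to 0. Of 129 members, 10 were at 1000 TPM or more (7.75%) and 12 had no read, against 44 and 7957 of all 25123 genes. After Lyz2, Apoe and Lgals3 stood Spp1, a cell-adhesive matrix protein, at 2773, 2858 and 2683 TPM, Lgals1 at 1873, 1550 and 1894, the growth factor precursor Grn at 1582 ± 69.8, the cathepsin inhibitor Cst3 at 1313 ± 57.2, and lipoprotein lipase, Lpl, at 966, 1112 and 947 TPM. Lgals1 was lowest and Lpl highest in replicate 2. Lyz1, the near-identical copy of Lyz2, was at 7.43 TPM, a value that reads of Lyz2 could affect.

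Complement genes fell into high and low members. The 3 chains of C1q, which opens the classical pathway, lie side by side on chromosome 4 and were at 1854 ± 123 (C1qb), 1533 ± 114 (C1qc) and 472 ± 49.5 TPM (C1qa). All 3 were lowest in replicate 2. Properdin, Cfp, which stabilises the alternative pathway convertase, was at 614, 565 and 619 TPM. Every other complement or coagulation gene of the list was under 10 TPM, with C3 at 9.85 TPM, and C7 had no read.

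Among chemokines, 5 of 29 were at 100 TPM or more (17.2%), against 3.66% of all genes. Pf4, platelet factor 4, was at 783, 703 and 859 TPM, above Ccl6 at 504, 495 and 523 TPM, Ccl9 at 388 ± 16.1, the monocyte attractant Ccl2 at 365, 355 and 335, and Ccl7 at 239 ± 17.0 TPM. None of these 5 overlapped with its neighbour. Cxcl10, an interferon-induced chemokine, was at 27.6 TPM, and Ccl11, Ccl17, Ccl19, Ccl20 and Cxcl13 had no read.

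Cytokine and growth factor genes had a median of 1.66 TPM. Tgfb1, a regulatory cytokine, led at 289, 259 and 275 TPM, followed by Mif at 159, 127 and 151 TPM, Tnfsf12 at 100.3 ± 11.4 and Igf1 at 77.4 ± 5.51. Tnfsf12 and Tnfsf13 overlap with a joint entry, and their values are uncertain. Inflammatory cytokines were low, with Tnf at 20.1, 18.3 and 17.5 TPM, Il10 at 2.16, Il1b at 0.565, Il12b at 0.0267 and Il6 at 0.0193 TPM, the last from replicate 2 alone. Ifnb1, Il12a, Csf2, Csf3, Areg and Ereg had no read.

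**Figure D3:**
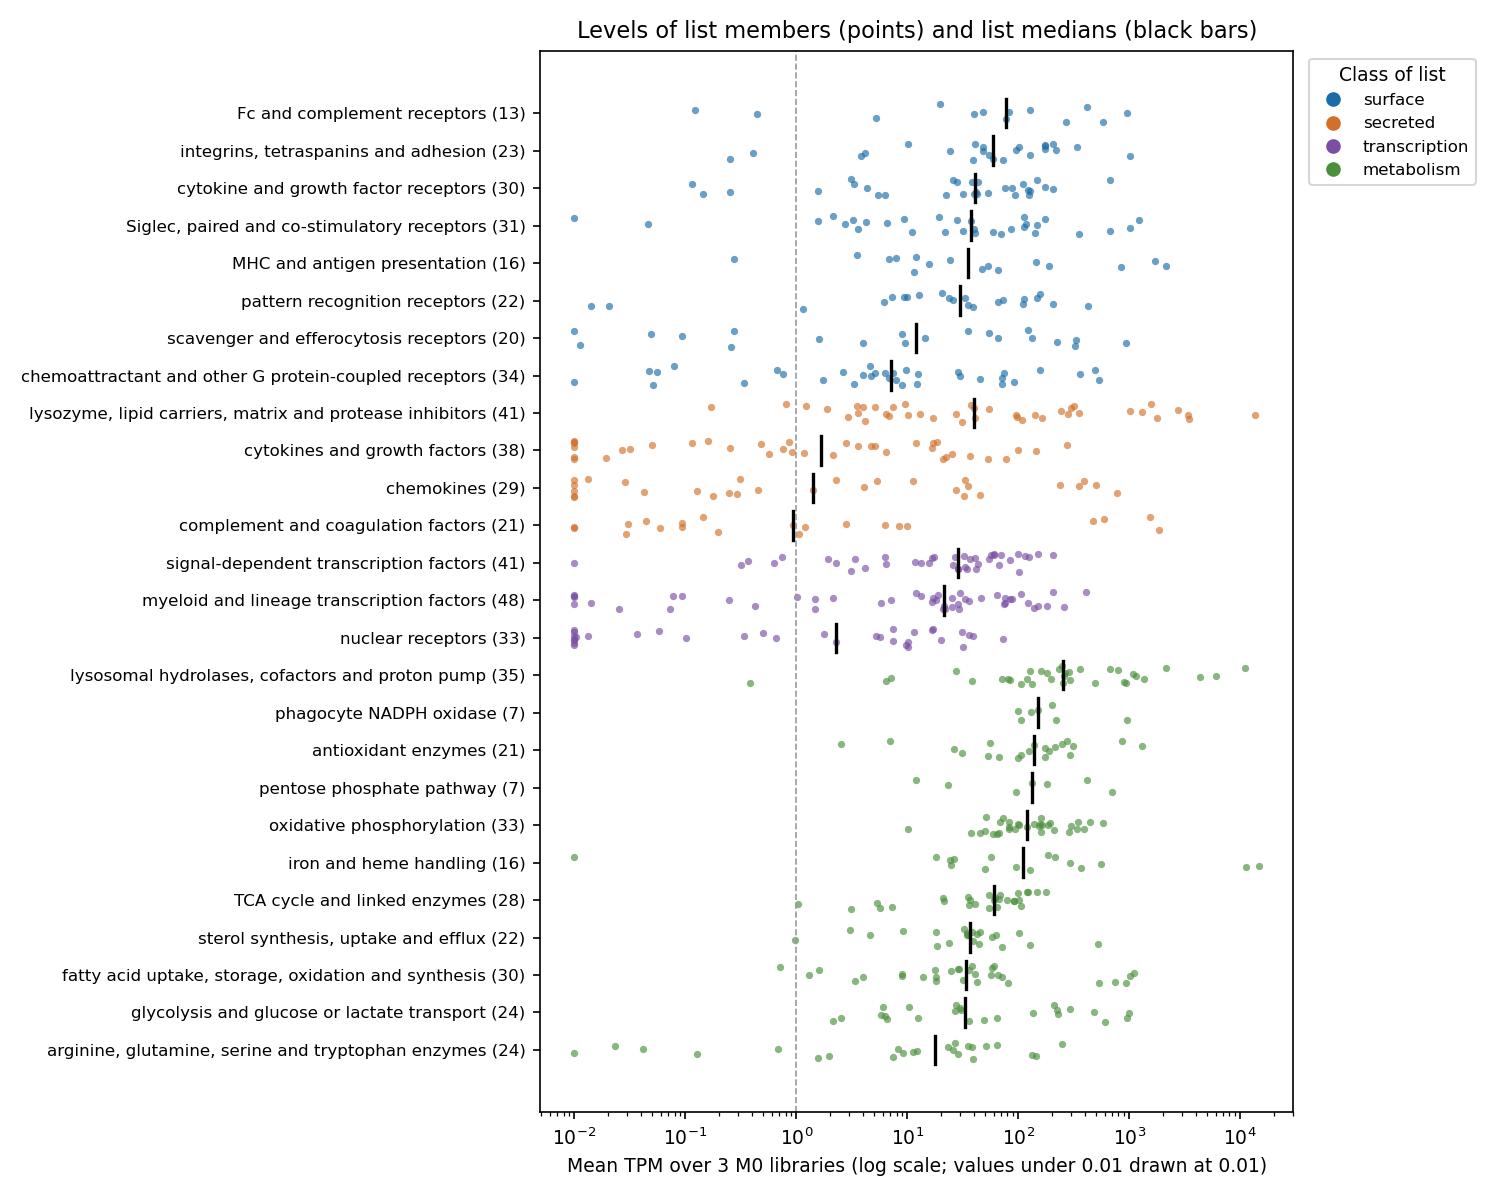
Mean TPM over the 3 M0 libraries (x axis, log scale) of every member of the surface, secreted, transcription and metabolism lists (rows, with the number of members), with a black bar at each list's median and a dashed line at 1 TPM. Medians run from 0.928 TPM for complement and coagulation factors to 253 TPM for lysosomal genes.

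No transcription factor gene of the lists reached 1000 TPM, a level reached by 44 of all 25123 genes. Of 122 members, 71 were at 10 TPM or more (58.2%) and 14 at 100 or more (11.5%). The shares over all genes were 26.7% and 3.66%. Spi1 led at 437, 371 and 417 TPM, above Maf at 266, 257 and 254 TPM. Maf helps to hold macrophages in a mature, non-dividing state. The C/EBP genes Cebpa (158, 134 and 157 TPM) and Cebpb (159, 114 and 146 TPM) overlapped, and both were lowest in replicate 2, as was Spi1. The inhibitor of DNA binding Id2 was at 180 ± 12.4 TPM, and Irf8, a monocyte lineage factor, was even across libraries at 75.8, 75.1 and 76.6 TPM. Lysosome-regulating factors stood at 64.9 (Tfe3), 28.8 (Tfeb), 21.9 (Tfec) and 19.1 TPM (Mitf). Of the 48 myeloid and lineage factors, 11 were under 1 TPM, against 14025 of all 25123 genes. Among the 11 were Gata2 at 0.0927, Pax5 at 0.00833 and Gata1 with no read. Other lineage factors of that list were higher, with Lmo2 at 88.2, Lyl1 at 36.2, Ikzf1 at 25.1 and Tal1 at 7.11 TPM.

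Of the factors that respond to signals, Irf5 was highest at 216, 199 and 207 TPM, followed by the stress factor Atf4 (151 ± 6.23), Stat6, which transmits IL-4 signals (125 ± 5.87), Jun (114 ± 7.94), Junb (109, 89.3 and 108 TPM) and Atf3 (101 ± 3.17 TPM). Of Stat6, Jun, Junb and Atf3, each overlapped with the next. Irf4 was at 0.315 TPM. No nuclear receptor reached 100 TPM. The oxysterol receptors Nr1h2 and Nr1h3 were at 73.4 ± 3.63 and 31.8 ± 1.86, their partner Rxra at 36.0 ± 0.939 and the lipid sensor Pparg at 16.7 ± 1.54 TPM, while Hnf4a, Nr1h4, Nr5a2 and Rxrg had no read.

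Nearly all genes of the metabolic lists were expressed. Of 247 members, 238 reached 1 TPM (96.4%), 209 reached 10 (84.6%) and 103 reached 100 (41.7%). The shares over all genes were 44.2%, 26.7% and 3.66%. Together the 247 members held 16.5%, 16.0% and 16.5% of all TPM in replicates 1, 2 and 3. Iron and haem handling genes held 5.13% of all TPM. Lysosomal genes alone held 6.26% ± 0.0264, with 27 of 35 at 100 TPM or more. Besides Ctsd, Psap and Ctsb these included Ctss (2162 ± 77.8), Ctsl (1149 ± 46.2) and Lamp1 (1096, 1140 and 1039 TPM), and Tcirg1, a proton pump subunit, at 357 TPM. Ctsk, the collagen-degrading cathepsin of osteoclasts, was at 6.38 TPM and Ctse at 0.382 TPM. Ctsb overlaps Fdft1, a sterol synthesis gene on the opposite strand, and reads of the pair may not be told apart.

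Iron handling went beyond ferritin. The haem oxygenase Hmox1 was at 570, 541 and 564 TPM, the biliverdin reductase Blvrb at 366 ± 30.2, the phagosomal metal transporter Slc11a1 at 295 ± 11.6, the iron exporter ferroportin, Slc40a1, at 127 ± 8.59 and the transferrin receptor Tfrc at 50.2 TPM. All 9 neighbouring pairs compared in that list were separated. Hamp, which encodes the hormone hepcidin, had no read.

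Glycolysis and glucose transport genes were led by Aldoa at 1016, 971 and 1021 TPM and Pkm at 955, 916 and 973 TPM, which overlapped. Ldha (607 ± 20.5) and Gapdh (484 ± 25.4 TPM) followed, and Slc2a1, the glucose transporter GLUT1, was at 31.3, 28.4 and 31.3 TPM. Of the 24 members 18 were at 10 TPM or more (75%), against 26.7% of all genes, and the lowest was the muscle enolase Eno3 at 2.16 TPM. Hk3 (230 ± 8.03 TPM) was the highest hexokinase, above Hk1 at 64.0 and Hk2 at 27.2 TPM. In the pentose phosphate pathway, which makes NADPH, Taldo1 was at 712, 680 and 708 TPM and Pgd at 414 ± 7.06, and all 7 members were at 10 TPM or more. Oxidative phosphorylation genes were all at 10 TPM or more (33 of 33), with a median of 121 TPM, led by Cox4i1 at 569, 554 and 606 TPM. Tricarboxylic acid cycle genes had a median of 60.7 TPM, led by Mdh2 at 177 ± 6.55 TPM.

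Lipid genes were led by storage and uptake. Plin2, which coats lipid droplets, was at 1100, 1085 and 1122 TPM and overlapped with Lpl at 966, 1112 and 947 TPM. Lpl in turn overlapped with Cd36 at 863, 1053 and 875 TPM. Lipa, the lysosomal lipase, was at 747 ± 58.2 and Fabp5 at 532 ± 21.6 TPM. Fatty acid oxidation genes lay lower, for example Cpt1a at 65.3 ± 4.20 TPM, and the desaturase Scd1 was at 0.720 TPM. The lysosomal cholesterol carrier Npc2 was at 525 ± 5.07 TPM and the efflux pumps Abca1 and Abcg1 at 62.7 ± 9.59 and 44.3 ± 1.45 TPM.

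Redox genes included Prdx1 at 1304 ± 40.1 and Gpx1 at 858 ± 12.0 TPM, which remove peroxides. All 7 genes of the phagocyte NADPH oxidase, which makes superoxide, were at 10 TPM or more, against 26.7% of all genes. Its membrane chains differed in level and in replicate order, with Cyba at 1001, 807 and 1057 TPM, lowest in replicate 2, and Cybb at 123, 151 and 113 TPM, highest in replicate 2. In arginine and tryptophan metabolism, Arg1 was at 1.87, 1.22 and 1.57 TPM, inducible nitric oxide synthase Nos2 at 0.0170, 0.0350 and 0.0180 TPM and Ido1 had no read. The itaconate-forming enzyme Acod1 was at 3.17, 3.79 and 2.38 TPM.

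**Figure D4:**
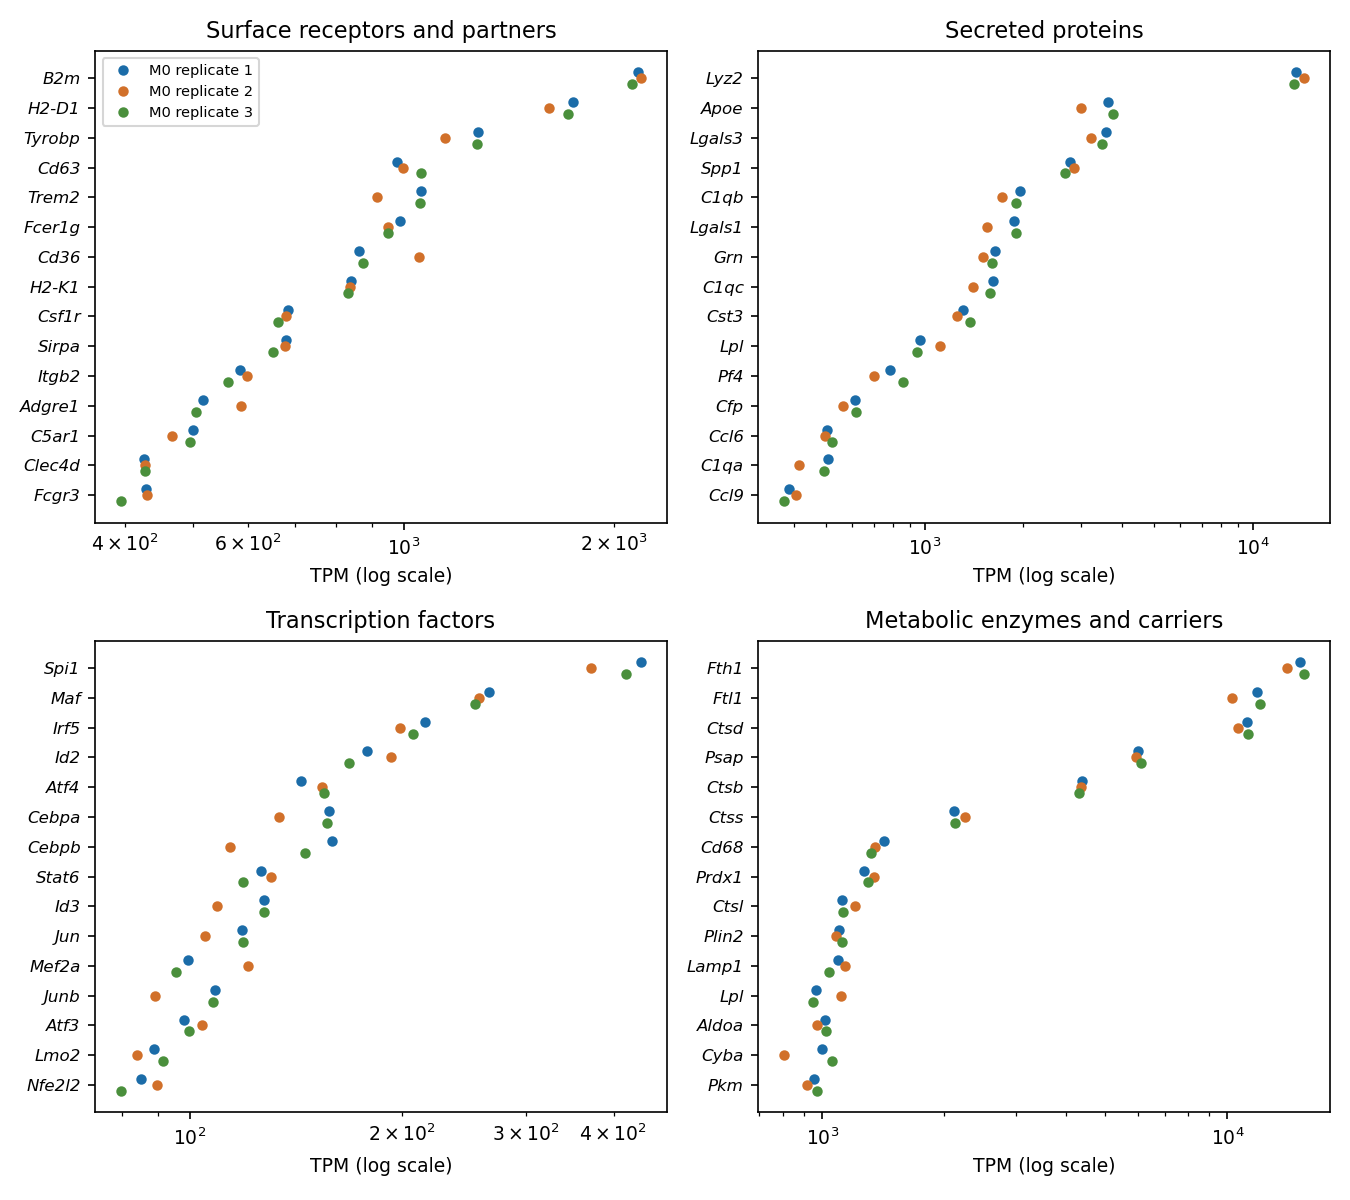
TPM (x axis, log scale, range differs by panel) in each M0 replicate (colours) of 15 of the most abundant members of the surface, secreted, transcription and metabolism lists. Replicates lie close for most genes, with replicate 2 apart for Cd36, Apoe, Cebpb and Cyba.

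Cell cycle genes were expressed in the resting culture. All 23 cell cycle genes reached 1 TPM and 20 reached 10 (87.0%), against 44.2% and 26.7% of all genes. Their median was 24.9 TPM and only 1 reached 100 TPM. The replication clamp Pcna was at 225, 244 and 234 TPM and Mki67 at 27.6, 36.4 and 27.2 TPM. The cyclin-dependent kinase inhibitor Cdkn1a was at 306, 276 and 299 TPM and cyclin D1, Ccnd1, at 228 ± 10.8 TPM. Immediate early and handling stress genes ran from the phosphatase Dusp2 at 2.35 and Btg2 at 3.85 TPM, through Dusp1 at 44.7, Zfp36 at 61.4 and Dusp6 at 91.8, to the chaperone Hspa8 at 477 TPM. The Y-linked genes Eif2s3y (39.4 ± 4.13) and Ddx3y (24.0 ± 2.76 TPM) were present in all 3 libraries, and Xist, expressed from the inactive X, was at 0.0110 TPM.

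The spread over the 3 replicates was small for most genes, and its median was larger than that from counting error. Over the 6699 genes with a mean of at least 10 TPM, the median CV was 6.07%, against 2.92% from counting alone, and 1223 genes had a CV at or under their counting CV. Replicates 1 and 3 were closest, with a median absolute log2 difference of 0.06, against 0.12 for replicates 1 and 2 and 0.13 for replicates 2 and 3. A difference of over 1.2-fold was seen for 126, 802 and 1004 genes in these pairs, in the same order, and of over 1.5-fold for 13, 17 and 27. Without replicate 2 the median CV was 2.84%. It rests on 2 libraries, so it cannot be set directly against the 6.07% from 3 libraries or the counting value.

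The replicates deviated with transcript length and base composition. For replicate 2, the median deviation from the mean of the 3 libraries, in log2(TPM + 1), was -0.07 for transcripts of 200 to 500 bases and 0.15 for those of 6000 bases or more. It was 0.13 for transcripts under 45% GC and -0.07 at 55% GC or more. Replicate 3 went the other way, from 0.07 to -0.09 over the same length classes and from -0.06 to 0.03 over the same GC classes. Replicate 1 was at -0.06 for transcripts of 6000 bases or more and went from -0.06 to 0.04 with GC content. The 3 deviations of a gene sum to 0, so they are not independent of each other. Long genes such as Cybb, Mki67 and Abca1 were highest in replicate 2, and short or GC-rich ones such as Apoe, Cyba, Cebpb and Rpl41 (1172, 907 and 1303 TPM) were lowest there. The cause of these trends was not tested.

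Only 60 of the 6699 genes had a CV over 20%, and 28 of them were entries under 200 bases. Of the 20 largest CVs, 18 belonged to such short miRNA entries, led by Mir5116 at 7.38, 19.2 and 6.77 TPM (7, 18 and 6 reads), and the other 2 were Phf11b (16.1, 16.7 and 9.41 TPM) and Rpp21, a subunit of ribonuclease P (38.8, 21.6 and 34.2 TPM). At the other end Ccdc22 was at 34.355, 34.325 and 34.366 TPM, closer than its counting CV of 2.96%, as were Clec4d, Mark2, Chmp7 and Spout1. These 5 genes were picked as the smallest CVs of the 6699, so their values describe the extreme of a list.

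Many interferon-stimulated genes were lowest in replicate 3. Their median CV was 10.6% over the 22 members at 10 TPM or more. Rsad2, viperin, was at 90.8, 102 and 73.2 TPM, Isg15, a ubiquitin-like modifier, at 91.3, 81.9 and 67.9 TPM, and Ifit2, an RNA-binding antiviral protein, at 62.9, 66.4 and 47.4 TPM. These 3 genes were lowest in replicate 3, as were 18 of the 22 members, against 38.0% of all genes at 10 TPM or more. The median deviation of the list in log2(TPM + 1) was 0.08, 0.07 and -0.16 in replicates 1, 2 and 3. With the trend on length and GC content removed, the medians for 20 members were 0.10, 0.01 and -0.11, and 19 were lowest in replicate 3. Of all 6203 genes with the trend removed, 2061 were lowest in replicate 3. The pattern was not confined to this list. The list of Siglec, paired and co-stimulatory receptors had 17 of 21 members lowest in replicate 3, and 14 of 20 with the trend removed. The list of Fc and complement receptors had 7 of 10, and 7 of 9 with the trend removed. The median deviations of these lists in replicate 3 were smaller, -0.06 and -0.07. With the trend removed they were -0.023 and -0.065. Ifitm3, whose promoter is shown above, was at 549, 500 and 524 TPM, lowest in replicate 2, and Bst2, tetherin, at 345, 272 and 330 TPM, also lowest in replicate 2.

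**Figure D5:**
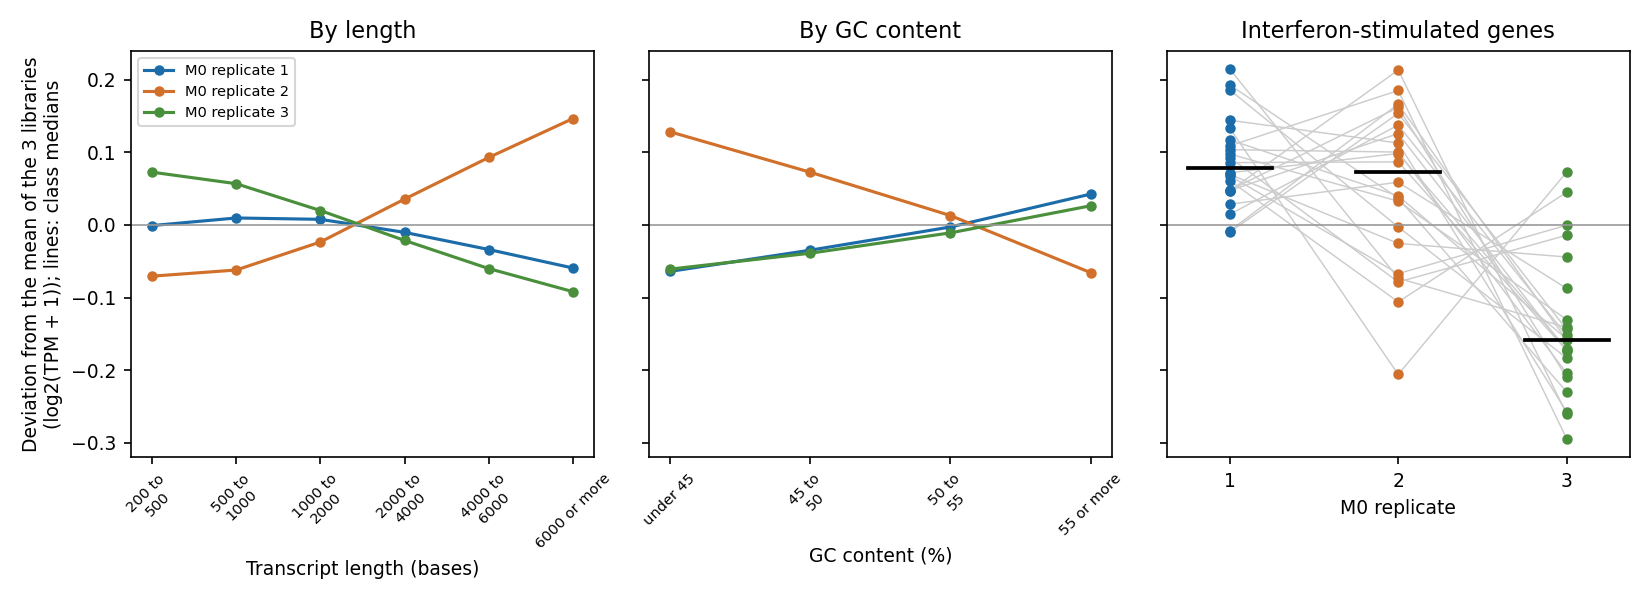
Deviation of each M0 replicate from the mean of the 3 libraries in log2(TPM + 1) (y axis) as medians by transcript length (left) and GC content (middle), and for each of the 22 interferon-stimulated genes at 10 TPM or more (right, grey lines join a gene, black bars are medians). Replicate 2 rises with length to 0.15 and falls with GC content to -0.07, replicate 3 falls with length to -0.09, and the interferon-stimulated genes have a median of -0.16 in replicate 3.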

How the data were processed

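Of 6 poly(A) RNA sequencing libraries, the 3 labelled M0 were used, with replicate numbers from the titles. The unit of the deposited values is TPM. Per the file headers, HOMER counted reads over exons of RefSeq genes in mm10 and kept 1 transcript per gene, and the header gives transcript length and number of copies. The submitters' processing notes name bcl2fastq, STAR, HOMER 4.11.1 and DESeq2, without settings. Whether counting used strand is not given in the sources used here. Summed over genes, TPM reached 548086 to 553153 in each library, short of a full total, for a reason not tested.

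Of 3 entries shifted by commas, 2 were realigned and 1, B4galt1, was left out. Whole reads were recovered from TPM times length (99.88% to 99.94% of values within 0.1 read) and used for depth and counting error only. Levels are the mean and SD of TPM, with no test. A gene is placed above another where its lowest library exceeds the other's highest. Deviations use a pseudocount of 1. Spread uses genes with a mean of at least 10 TPM, and GC content was known for 93.4% of them, from GENCODE M21 transcripts. The spread calculation was tested on simulated data.

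The 48 gene lists, 962 genes, with 1 symbol not found (Ighm), and the motifs were chosen with earlier results of these data known. Named by rule were the 25 most abundant genes, up to 6 top members and members with no read per list, all macrophage markers, the largest and smallest CVs, and the largest CV in each list. Other members named were chosen after their values were seen. A few genes of the lists are counted but not reported here by name. Alternatives were leaving out each replicate, median-ratio scaling, rescaling to a full total, removal of short or multi-copy entries, other thresholds and log scales, and motifs on 1 strand. Computations used pandas 2.3.3 and numpy 2.4.6, and figures matplotlib 3.10.9, under Python 3.11.15.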

Additional observations from a re-analysis of the deposited data

How the results depend on the processing

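No paired analysis was possible because 1 group of libraries was described and no result comes from a test. The number of genes at 1 TPM or more was 11082 to 11115 with 1 replicate left out, 11730 after rescaling to a full total, 10840 without short or multi-copy entries, 10822 if 1 TPM was required in every library and 11822 at a threshold of 0.5 TPM. The median CV of genes at 10 TPM or more was 2.84% to 6.41% with 1 replicate left out, the lowest value without replicate 2, and 4.97% to 7.46% at minimum means of 50 and 1 TPM. The share of the 100 most abundant genes and the counts of surface, secreted, transcription and metabolism members at 10 TPM or more moved by less than the spread or by under 1.5 times under every alternative run. Of 14 named genes, all had higher TPM after rescaling to a full total by more than their SD, as that step raises every gene. Ranks by reads differed from ranks by TPM by more than the SD of the rank for 13 of the 14, Actb being the exception. Motif shares on 1 strand stand beside the shares on both strands. Chosen after seeing the data, interferon-stimulated genes lower in replicate 3 than in replicate 1 numbered 22 of 22, and 18 were lower than in replicate 2. The median log2 difference over all 6699 genes at 10 TPM or more was 0.00711 for replicate 1 minus replicate 3. For replicate 2 minus replicate 3 it was 0.0494. Both medians were above 0, so all genes together also leaned lower in replicate 3. The share of all genes lower in replicate 3 was not counted for either pair, so these 2 counts have no such share beside them. The ribosomal protein genes' median deviation in replicate 2 changed from -0.04 to 0.00 once the length and GC trend was removed. Genes under 1 TPM have a median counting CV of 78.5%, so their order is not resolved at this depth.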

Other observations

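Ribosomal protein and cytoskeletal genes made up a further share of the resting macrophage RNA. Of all genes, 3.66% were at 100 TPM or more. The 76 cytosolic ribosomal protein genes held 6.12% of all TPM, with a median of 407 TPM and 72 members at 100 TPM or more, from Rplp1 at 1842, 1477 and 1961 TPM to Rps15a at 36.4 TPM. Many ribosomal protein genes have processed copies in the genome, so low values in this family are uncertain. Of 32 actin cytoskeleton and calcium-binding genes, 26 were at 100 TPM or more, including cofilin, Cfl1, at 1277 ± 12.8 TPM and the actin-capping protein Capg at 973 ± 41.8 TPM, while the bundling protein Fscn1 was at 0.693 TPM.

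The CCAAT letters CCAATCA, on either strand, were in 9.24% of all promoters, in 9 of 19 promoters of cell cycle genes (47.4%) and in 7 of 10 promoters of antigen presentation genes. The NRF1 motif, on either strand, was in 1.36% of all promoters and in 7 of 5224 promoters of genes at 0 in every library (0.134%).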
